A study of Drosophila melanogaster with 3 samples.

Results

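Near-intronic summits are the binding maxima of Hr3 that lie in an intron and close to, but not at, a promoter. A summit is the position of highest signal that the authors recorded inside a peak. A summit was counted as near-intronic when it lay inside a gene body, outside every exon, and more than 500 bp and at most 3000 bp from the nearest transcription start site (TSS) of any annotated transcript. Of the 5357 reproducible summits of the series, 935 met this rule, a share of 17.5% with an exact binomial 95% interval of 16.4 to 18.5% that covers counting error only. Of these 935, 736 (78.7%) lay in the first intron of a transcript, 132 (14.1%) in a second intron and 67 (7.17%) in a later one.

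The data came from chromatin immunoprecipitation and sequencing (ChIP-seq) of whole Drosophila melanogaster embryos of both sexes, aged 0 to 24 h. The embryos carried a transgene for Hr3 (Hr46) fused to eGFP. Per the description, the fusion protein was precipitated with an antibody to GFP, while the antibody label names Hr3. The description was followed here. There was 1 group of 3 biological replicates, as the labels number them, so all samples carried the transgene, and no untagged or input library was analysed here. Whole embryos over this span mix cell types and stages, and the peak lists hold no read counts, so sequencing depth is unknown.

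Hr3 is the fly counterpart of the mammalian ROR receptors, a nuclear receptor that is induced in the response to the steroid hormone ecdysone and acts in a cascade of transcription factors with Eip75B and Ftz-f1. Receptors of this family can bind DNA as a single molecule, at an AT-rich stretch followed by a nuclear receptor core sequence, together called the ROR response element (RORE). Introns next to promoters, the first intron above all, are known to hold enhancers and alternative promoters in flies.

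The sequences at the summits of the strongest members are shown first, because these windows carry the highest signal. Each is 101 bases of the dm6 assembly in lower case, with the summit base in capitals.
ush, chr2L:481025-481125, plus strand: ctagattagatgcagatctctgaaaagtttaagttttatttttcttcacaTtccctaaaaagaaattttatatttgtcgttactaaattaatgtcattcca
CG11050, chr2L:6612660-6612760, plus strand: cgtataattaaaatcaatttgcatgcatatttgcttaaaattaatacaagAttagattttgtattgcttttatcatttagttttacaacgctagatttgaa
Lk6, chr3R:11761005-11761105, plus strand: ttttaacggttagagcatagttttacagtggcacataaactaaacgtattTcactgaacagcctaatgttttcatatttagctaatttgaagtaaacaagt
CG32772, chrX:4910305-4910405, plus strand: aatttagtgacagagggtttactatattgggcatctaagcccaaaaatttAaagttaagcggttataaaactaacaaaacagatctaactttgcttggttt
Trl, chr3L:14759467-14759567, plus strand: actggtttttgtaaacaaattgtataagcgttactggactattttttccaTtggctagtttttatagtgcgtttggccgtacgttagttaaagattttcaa
CG9663, chr2L:3302154-3302254, plus strand: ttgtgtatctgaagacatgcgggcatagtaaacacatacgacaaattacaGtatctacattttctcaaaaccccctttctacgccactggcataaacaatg
These 6 windows held 22.8 to 39.6% GC. No RORE lay within 100 bp of the summit in any of the 12 strongest members. The share over all members was 1.18%, so this does not set the 12 apart.

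The RORE matches near members are shown next, because this is the element of the receptor family. Each line gives the match in capitals with 20 bases on either side, 5′ to 3′ on the strand that carries it, with dm6 coordinates.
CG46310/Irk1, chr3R:23175654-23175703, plus strand: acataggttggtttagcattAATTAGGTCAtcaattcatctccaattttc
beat-Ib, chr2L:15908804-15908853, plus strand: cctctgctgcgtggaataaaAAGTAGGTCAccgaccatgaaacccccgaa
Eip75B, chr3L:17972512-17972561, minus strand: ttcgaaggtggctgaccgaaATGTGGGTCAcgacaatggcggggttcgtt
kdn, chrX:6353756-6353805, minus strand: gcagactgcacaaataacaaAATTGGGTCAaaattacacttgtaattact
Acf, chr3R:31794776-31794825, minus strand: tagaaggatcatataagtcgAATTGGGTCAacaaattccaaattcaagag
alt, chr3R:17680888-17680937, plus strand: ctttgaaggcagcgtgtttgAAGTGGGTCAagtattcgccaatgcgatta
rudhira, chrX:11820585-11820634, minus strand: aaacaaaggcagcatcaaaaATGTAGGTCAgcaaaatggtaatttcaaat
C3G, chrX:6796147-6796196, minus strand: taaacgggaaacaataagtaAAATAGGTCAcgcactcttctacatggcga
Eip75B, chr3L:17964738-17964787, minus strand: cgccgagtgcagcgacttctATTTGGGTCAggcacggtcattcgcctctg
The search required each match to end in the core AGGTCA or in its form with G as the first base, so all 9 did so by rule. The matches at beat-Ib, at rudhira and at the first Eip75B line covered the summit base.

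The CTCF core, the DNA element of an insulator protein, is shown for 3 of the strongest members that carry it. It was searched as AGATGGCGC, AGGTGGCGC, AGAGGGCGC or AGGGGGCGC, and each line gives the match in capitals with 20 bases on either side on its own strand.
CG43693, chr3L:11048037-11048085, minus strand: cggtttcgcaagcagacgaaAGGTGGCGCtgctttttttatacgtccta
CG43693, chr3L:11048088-11048136, plus strand: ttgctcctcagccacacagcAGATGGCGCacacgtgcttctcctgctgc
CG43658, chrX:17532003-17532051, minus strand: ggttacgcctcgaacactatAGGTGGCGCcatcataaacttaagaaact
Hr4, chrX:1953097-1953145, minus strand: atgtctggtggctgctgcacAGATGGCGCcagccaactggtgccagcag
Hr4, chrX:1953126-1953174, plus strand: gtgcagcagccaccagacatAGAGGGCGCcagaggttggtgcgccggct
CG43693 and Hr4 each carried 2 matches within 100 bp of 1 summit, on opposite strands.

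Near-intronic sequence held more summits per length than other intronic and intergenic sequence, and fewer than promoters. The 935 members lay in 16.8 Mb of sequence that meets the rule, or 55.8 summits per Mb. Promoter sequence, within 500 bp of a TSS, held 152 per Mb (2758 summits), and deep intronic sequence, beyond 3000 bp, held 23.6 per Mb (851 summits). Intergenic sequence beyond 500 bp held 19.4 per Mb (709 summits) and exonic sequence beyond 500 bp held 3.93 per Mb (104 summits). Members were thus 17.5% of the summits, where sequence that meets the rule is 12.5% of all bases of the 6 chromosome arms, a ratio of 1.39.

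The share was close in the 3 replicates. In the strongest 5357 peaks of each replicate taken alone, it was 17.9, 17.7 and 18.3%, or 18.0% ± 0.302 (SD, n = 3). All 3 values lay above the 12.5% of bases. It was also nearly level over 5 equal parts of each replicate's longer, relaxed list ordered by signal. The near-intronic share was 18.0% ± 0.378 in the strongest part, 17.7% ± 0.666 in the weakest and 18.9 to 19.8% between them (SD, n = 3). Per its label, the pooled relaxed list holds peaks and background, so the weak parts can hold background calls. The near-intronic share lay above the 12.5% of bases in the weakest part too, so this excess was not particular to strong peaks. The promoter share fell over the same 5 parts, with 51.8% ± 0.600 in the strongest and 19.5% ± 0.647 in the weakest, and the exonic share rose, with 1.95% ± 0.148 in the strongest and 14.5% ± 0.285 in the weakest.

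By chromosome arm, members were densest on X, with 68.2 per Mb (222 members), and least dense of the large arms on 2L, with 46.7 per Mb (142 members). Arm 2R held 58.6 per Mb (179 members), 3R 55.2 (210 members) and 3L 53.1 (181 members), and chromosome 4 held 1 member. The replicates' own lists gave 69.7 ± 3.25 per Mb on X, 59.0 ± 3.23 on 2R, 57.7 ± 1.97 on 3R, 54.8 ± 1.06 on 3L and 48.3 ± 2.43 on 2L (SD, n = 3). The lowest replicate on X, at 67.3 per Mb, lay above the highest replicate of every other arm. Arms 2R and 3R did not differ beyond the spread between replicates.

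Members sat mostly downstream of the TSS nearest to them, but no more often than the sequence allows. Of the 935, 589 lay downstream (63.0%, 95% interval 59.8 to 66.1%), and so do 65.2% of the bases that meet the rule. The lists of the single replicates gave 65.1% ± 0.925 (SD, n = 3). What stood apart from the sequence was whose TSS it was: the TSS of a gene that holds the summit for 776 members (83.0%, 95% interval 80.4 to 85.3%), against 68.6% of the bases. The replicates' lists gave 83.5% ± 0.451 (SD, n = 3).

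The excess over the bases was larger on the upstream side. A position upstream of a TSS of the host gene lies between an outer and an inner promoter of that gene. There were 246 such members (26.3%, 95% interval 23.5 to 29.3%), against 15.5% of the bases, and 24.5% ± 0.585 of the members in the replicates' lists (SD, n = 3). Downstream of the host gene's TSS lay 530 members (56.7%), against 53.1% of the bases, and 59.0% ± 0.913 in the replicates' lists. Members nearest to the TSS of another gene were below the bases on both sides, with 100 upstream of it (10.7%, against 19.3% of the bases) and 59 downstream of it (6.31%, against 12.1%). First introns, which held 736 members (78.7%, 95% interval 76.0 to 81.3%), make up 61.3% of the bases that meet the rule, and the replicates' lists gave 80.2% ± 0.889.

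**Figure D1:**
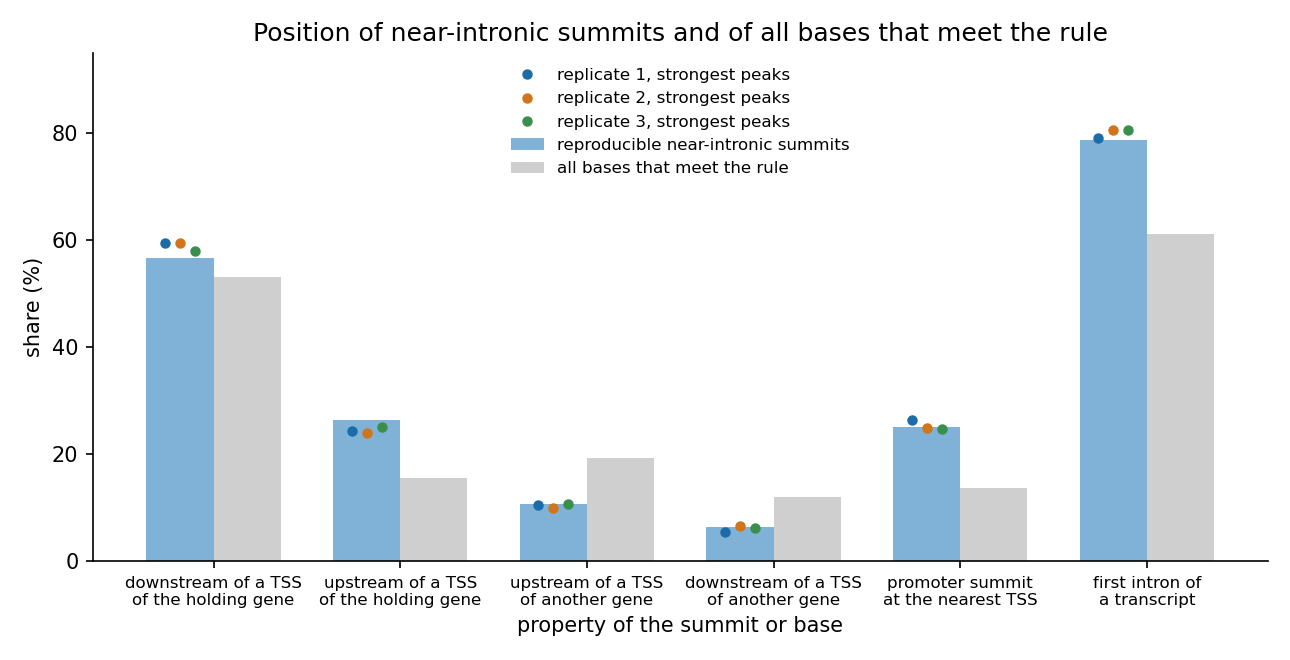
Share of near-intronic summits (blue bars, the reproducible list; dots, the 3 replicates' own strongest peaks) and of all bases that meet the rule (grey bars) with each position relative to TSSs, in percent. Both positions nearest to a TSS of the host gene, first introns and a promoter summit at the nearest TSS stood above the bases in all 3 replicates. Both positions nearest to another gene's TSS stood below them.

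The nearest TSS belonged to a protein-coding gene for 841 members, a non-coding RNA for 78, a tRNA for 8, a small nucleolar RNA for 5 and a pseudogene for 3. The members lay in 699 host genes, and 84 of them lay in more than 1 gene at once. The introns that held them had a median length of 6226 bp (104 to 78340 bp), and the median distance to the nearest exon edge was 725 bp (8 to 2974 bp). Another reproducible summit lay within 500 bp of 102 members (10.9%), and the median distance to the next reproducible summit was 2293 bp for members, against 3669 bp over all 5357 summits.

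Members lay near a bound promoter more often than the sequence that meets the rule does. A promoter summit at the nearest TSS was found for 234 members (25%, 95% interval 22.3 to 27.9%), while 13.6% of the bases that meet the rule have a bound nearest TSS. In single replicates the share was 25.3% ± 0.994 (SD, n = 3). With only summits over the median signal, members and promoter summits alike, it was 16.2% (74 of 457), against 7.80% of the bases. With all promoter summits kept, the same 457 members had one in 28.9% of cases. Deep intronic summits had one in 181 of 851 cases (21.3%), intergenic distal summits in 96 of 709 cases (13.5%), and 4393 of the 23581 annotated TSS positions (18.6%) had one. Over the replicates, the near-intronic share was higher than the deep intronic share by 4.02 ± 0.730 percentage points and higher than the intergenic share by 10.3 ± 0.262 points (SD, n = 3). Both differences had the same sign in 3 of 3 replicates. The exact two-sided sign-flip test gave p = 0.25 for each, the smallest value 3 replicates allow, so no difference between classes could reach 0.05 in this test.

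Summit density fell with distance from the TSS. It was 80.5 per Mb between 501 and 1000 bp (355 members), 59.2 up to 1500 bp (223), 50.1 up to 2000 bp (163), 37.8 up to 2500 bp (107) and 34.7 up to 3000 bp (87). In the same bins, the lists of the single replicates gave 81.2 ± 2.76, 61.6 ± 1.40, 51.2 ± 1.42, 40.8 ± 2.01 and 35.8 ± 2.27 per Mb (SD, n = 3). Each step down exceeded these SDs. Intronic summits beyond the limit, in bins of the same width up to 6000 bp, stood at 31.6 to 40.3 per Mb, the range that also holds the outer 2 bins of members. Between 6001 and 10000 bp the bins ran from 17.7 to 39.8 per Mb, and the last 3 of them had 24.0 ± 1.28, 25.8 ± 2.47 and 23.9 ± 0.740 per Mb in the replicates' lists, below the outermost members.

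**Figure D2:**
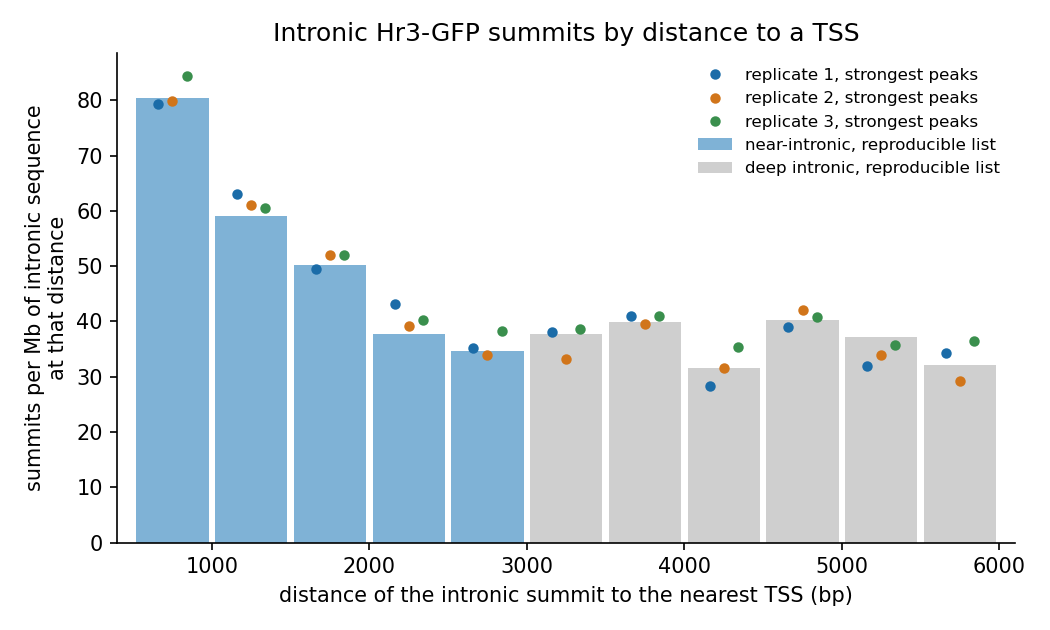
Intronic summits per Mb of intronic sequence, in bins of 500 bp of distance from the nearest TSS (blue bars, near-intronic, and grey bars, deep intronic summits of the reproducible list; dots, the 3 replicates' own strongest peaks). The density was 80.5 per Mb in the first bin of members and 34.7 per Mb in their last, and the grey bins, up to 6000 bp, lay between 31.6 and 40.3 per Mb.

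Distance went with few other measures. Members downstream of their nearest TSS numbered 205 of 355 in the bin up to 1000 bp, 150 of 223 up to 1500 bp, 107 of 163 up to 2000 bp, 70 of 107 up to 2500 bp and 57 of 87 up to 3000 bp. The share with a promoter summit at the nearest TSS was 22.5% in the first bin and 25.3 to 27.1% in the others. Relative signal, defined as a replicate's signal at a summit divided by that replicate's median over all reproducible summits, had bin medians between 0.956 and 1.01. The median distance over all members was 1216 bp, with 804 and 1864 bp as quartiles.

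At the edges of the rule, members just inside and intronic summits just outside had overlapping signals. Just inside the lower limit lay Stt3A, the catalytic subunit gene of an oligosaccharyl transferase, at 501 bp (relative signal 0.545 ± 0.0825) and mrj, a gene for a DnaJ-type chaperone, at 502 bp (0.571 ± 0.287). Just inside the upper limit lay cv-c at 2991 bp (1.68 ± 0.141) and tou at 2993 bp (0.768 ± 0.289). Just outside the lower limit lay a summit of the Hr3 locus at 500 bp from lncRNA:CR46322 (2.13 ± 0.209) and one at 499 bp in lncRNA:CR44078 (0.668 ± 0.147). Just outside the upper limit lay siz at 3002 bp (1.59 ± 0.163) and Hipk, a homeodomain-interacting kinase gene, at 3013 bp (0.645 ± 0.121). All are means and SDs over 3 replicates, given as a description.

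Near-intronic summits were about as strong as the average reproducible summit. Their median relative signal was 0.982, 0.984 and 0.998 in the 3 replicates, or 0.988 ± 0.0086 (SD, n = 3). Deep intronic summits had 0.888 ± 0.0153, intergenic distal summits 0.878 ± 0.0324, promoter summits 1.09 ± 0.0109 and exonic summits 1.05 ± 0.0739. Members were thus weaker than promoter summits by a log2 ratio of medians of -0.14 ± 0.027, and stronger than deep intronic summits by 0.15 ± 0.027 and than intergenic distal summits by 0.17 ± 0.050. Each of the 3 ratios had the same sign in 3 of 3 replicates, with an exact two-sided sign-flip p of 0.25. Against exonic summits the ratio was -0.09 ± 0.115, with replicates of both signs (exact p = 0.5).

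**Figure D3:**
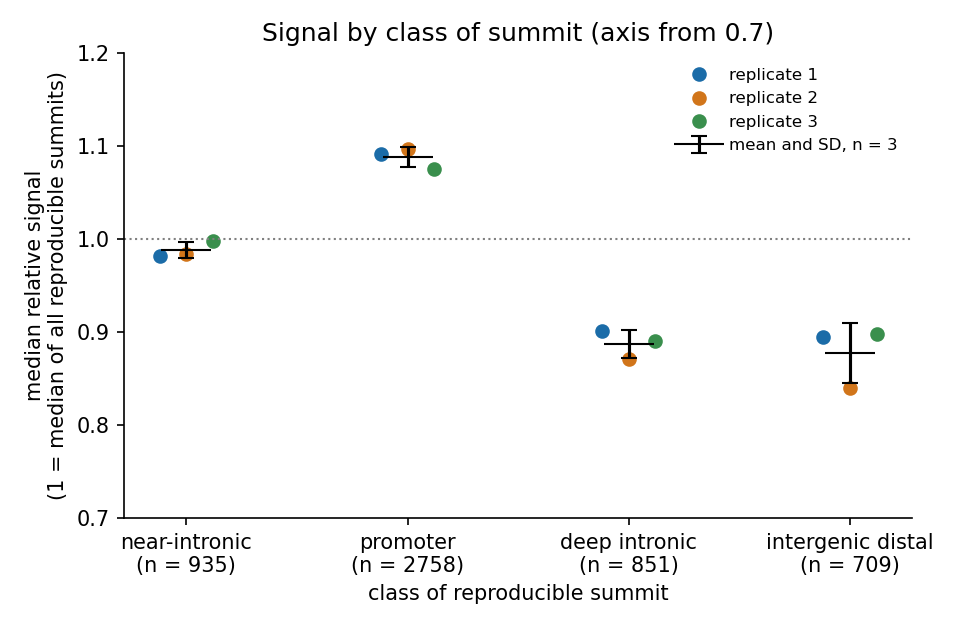
Median relative signal (signal at the summit divided by the replicate's median over all reproducible summits) of 4 classes of reproducible summit, on an axis that starts at 0.7, with the replicates as dots and the mean and SD (n = 3) in black. Near-intronic summits, at 0.988, stood below promoter summits and above deep intronic and intergenic distal summits in every replicate.

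The members' own spread was far larger than these class differences. The relative signal averaged over the replicates ran from 0.396 to 17.8, with a median of 0.975, over the 920 members that had a relaxed peak in all 3 replicates. The coefficient of variation over the replicates had a median of 16.4%, against 16.5% over all reproducible summits. Of the 935 members, 654 (69.9%) lay among the strongest 5357 peaks of each of the 3 replicates, against a background of 69.0% over all reproducible summits (3698 of 5357), so members did not stand apart in this. Of the other 281, 2 were in none of the replicates' strongest lists. Members were 14 of the 100 strongest reproducible summits (14.0%) and 161 of the 1000 strongest (16.1%).

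Signal within the members went with binding at the promoter. The 234 members whose nearest TSS had a promoter summit had a median of 1.09 ± 0.0177, and the 701 others 0.960 ± 0.0074, a log2 ratio of 0.19 ± 0.035 with the same sign in 3 of 3 replicates (SD, n = 3, exact p = 0.25). Members nearest to another gene's TSS had 0.895 ± 0.0385 (159 members), against 1.01 ± 0.0201 for those downstream of the host gene's TSS (530 members), a log2 ratio of -0.17 ± 0.069 (exact p = 0.25). Members in first introns exceeded those in later introns by 0.09 ± 0.033 on the log2 scale (exact p = 0.25). Members on X exceeded those on the other arms by 0.10 ± 0.038 (exact p = 0.25). Downstream and upstream members of the host gene differed by 0.04 ± 0.060, with replicates of both signs (exact p = 0.5).

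The member was not regularly the weaker partner of its promoter. Of the 234 pairs of a member and the promoter summit at its nearest TSS, the member was the stronger in 3 of 3 replicates in 81 (34.6%) and the weaker in 3 of 3 in 80 (34.2%), and 73 (31.2%) were mixed. Where several promoter summits lay within 500 bp of the TSS, the one of highest deposited signal was taken, and members can share a promoter summit. In 4 pairs both summits fell in 1 relaxed peak of some replicate. Over the other 230, the median log2 ratio of member to promoter was -0.03 ± 0.089 (SD, n = 3, exact p = 0.5).

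The strongest member lay in the first intron of ush, which encodes a zinc finger cofactor of GATA factors, 1387 bp upstream of the TSS of its neighbour cbt, which encodes a zinc finger transcription factor. Its relative signal was 16.1, 18.6 and 18.7 in the 3 replicates, or 17.8 ± 1.47 (SD, n = 3), in the peak at 2L:480808-481373. The second lay in CG11050 (2L:6612482-6612932), in a second intron of 140 bp, with 11.6, 12.8 and 12.8, or 12.4 ± 0.681. These 2 stood above all other members in every replicate.

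Lk6, which encodes a kinase that phosphorylates the translation factor eIF4E, had 8.61, 9.39 and 8.85 (8.95 ± 0.398), 976 bp upstream of an internal TSS (3R:11760833-11761285). CG32772 had 8.94, 8.69 and 8.62 (8.75 ± 0.170, X:4910065-4910609), and Trl, the gene of GAGA factor, had 8.67, 7.97 and 9.26 (8.63 ± 0.646, 3L:14759296-14759741). These 3 overlapped in their replicate values and have no order among them.

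Adf1, which encodes a Myb-related activator, had 6.31, 8.58 and 8.27 (7.72 ± 1.23), 820 bp into the gene. A summit shared by HmgZ and HmgD, genes for HMG-box chromosomal proteins, had 6.88, 7.59 and 7.64 (7.37 ± 0.425). CG9663 had 7.23, 7.72 and 6.90 (7.29 ± 0.413), and Tlk, the gene of Tousled-like kinase, had 6.32, 7.05 and 7.74 (7.04 ± 0.712). These 4 overlapped as well. The last 3 of the 12 were CG12769 (6.11, 6.53 and 6.03), CG3726 (5.85, 6.02 and 5.78) and CG9837 (5.13, 5.60 and 6.81). Of the 12 strongest members, 10 lay in a first intron, 7 lay downstream of the nearest TSS, and 2, at cbt and Adf1, had a promoter summit at the nearest TSS.

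**Figure D4:**
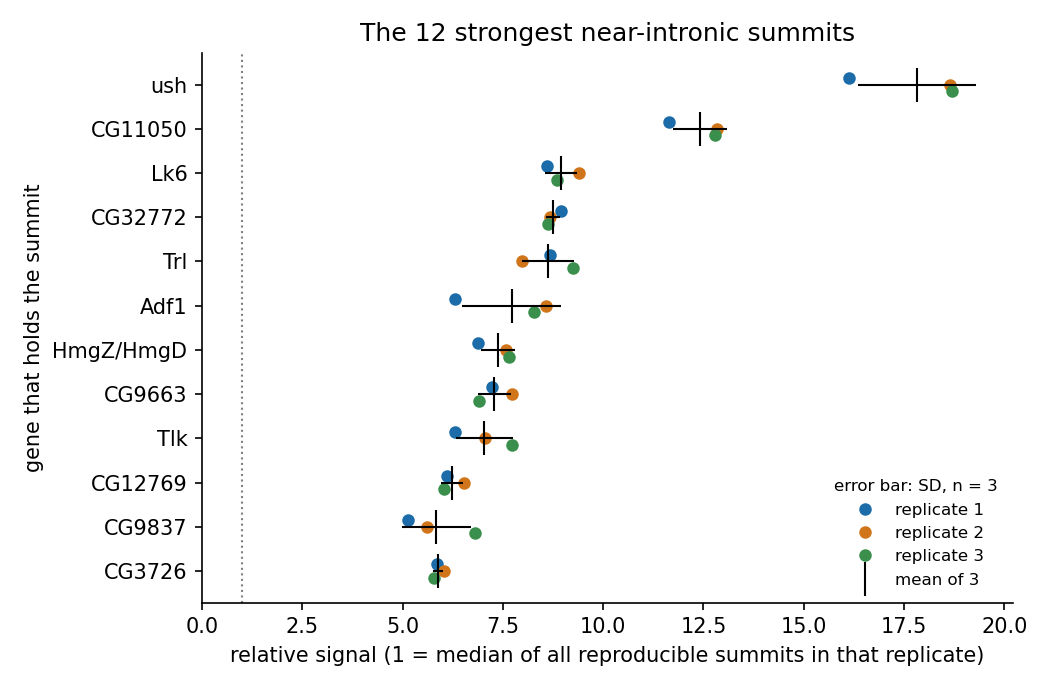
Relative signal of the 12 strongest near-intronic members in each replicate (dots) with the mean (upright mark) and SD (horizontal bar, n = 3), named by host gene, with a dotted line at the median of all reproducible summits. The ush member, at 17.8, and the CG11050 member, at 12.4, stood above the rest in every replicate.

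The base composition at members was AT-rich at the summit and GC-rich beside it. Within 100 bp of the summit, members averaged 34.1% GC (16.9 to 61.2%), against 39.9% over the bases that meet the rule. The 3 single lists gave 34.4% ± 0.513 (SD, n = 3). The profile in windows of 51 bp had its minimum of 30.9% at the summit itself, with 43.9 and 44.4% at 300 bp on either side and 40.3 and 40.6% at 1000 bp. Promoter summits averaged 34.0% within 100 bp, deep intronic summits 34.3%, intergenic distal summits 33.8% and exonic summits 36.7%. The minimum was therefore shared by the classes, and members differed from promoter summits by 0.0534 ± 0.068 percentage points over the replicates (exact p = 0.5).

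Beside the summit lay GAGA and CA repeats. All elements were searched on both strands, and a match is a description of letters, not a site. GAGAGAG, the letters that GAGA factor binds, lay within 100 bp of the summit in 36 members (3.85%), against 2.93% of windows over all bases that meet the rule. Centred 500 bp to either side of the summit, the same window held it in 9.95% on average. In the replicates' own lists this flank share was 9.22% ± 0.364 for members, against 5.47% ± 0.182 for deep intronic, 4.50% ± 0.242 for intergenic distal and 3.80% ± 0.286 for promoter summits (SD, n = 3).

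The differences in flank share were 3.75 ± 0.298, 4.72 ± 0.166 and 5.42 ± 0.553 percentage points against deep intronic, intergenic distal and promoter summits, with the same sign in 3 of 3 replicates (exact p = 0.25 each). CACACACA had the same shape, with 31 members at the summit (3.32%, against 4.86% of windows over the bases) and 9.25% in the flanks. Its flank share exceeded that of deep intronic summits by 0.969 ± 0.609 points, of intergenic distal summits by 2.43 ± 0.423 points and of promoter summits by 2.78 ± 0.531 points (exact p = 0.25 each). Flank windows can reach out of the intron into other sequence, and the comparison of flanks and the profile of these repeats were chosen after the values were seen.

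**Figure D5:**
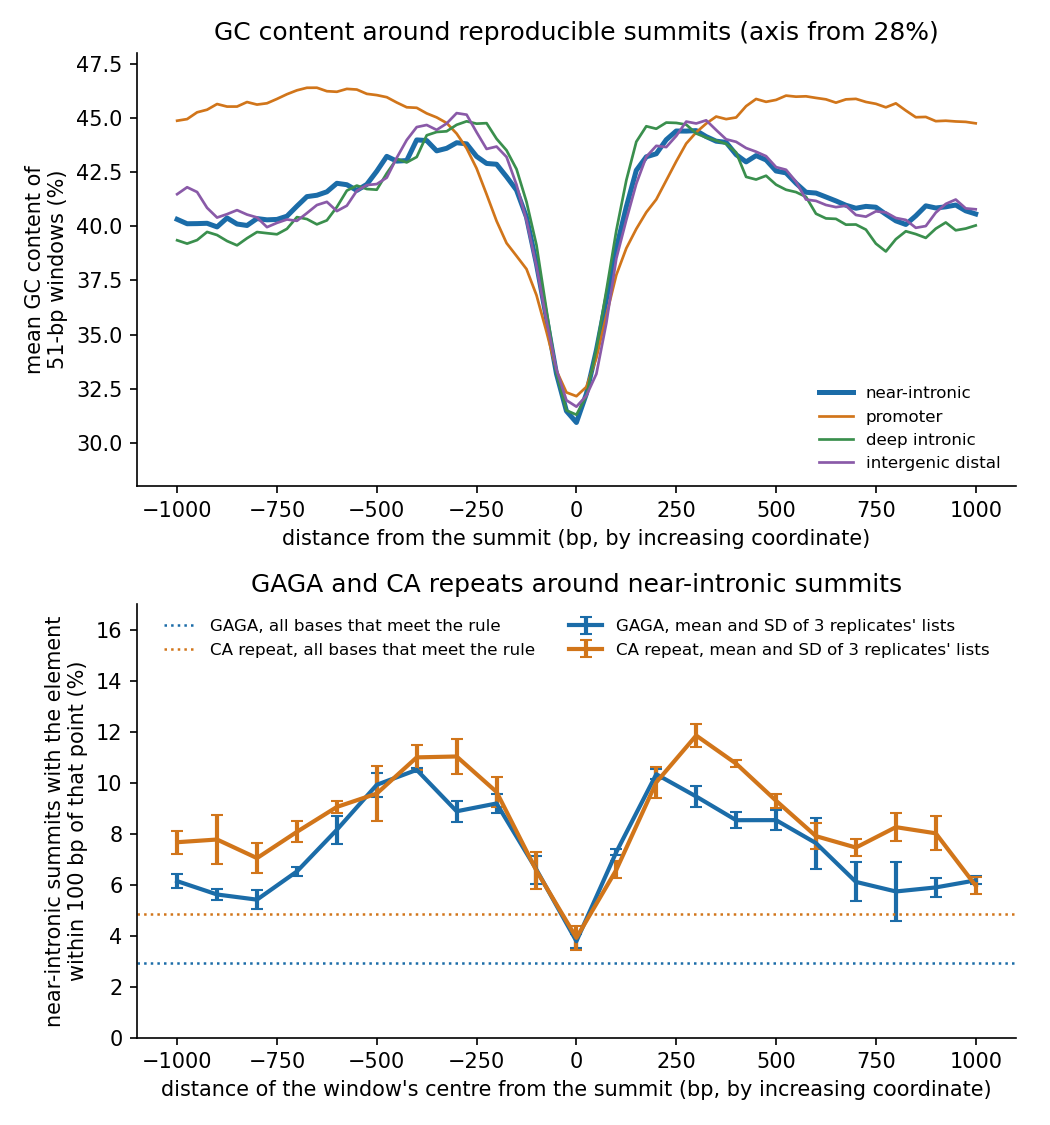
Top, mean GC content of 51-bp windows by distance from the summit for near-intronic summits and 3 other classes, on an axis that starts at 28%; bottom, percentage of near-intronic summits with GAGAGAG or CACACACA within 100 bp of points at each distance (mean and SD of the 3 replicates' own lists; dotted lines, all bases that meet the rule). GC had its minimum of 30.9% at the summit, and both repeats were rarest there and most frequent 200 to 500 bp to either side.

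The RORE was rare among members. It lay within 100 bp of the summit in 11 of 935 (1.18%, 95% interval 0.589 to 2.10%), against 1.29% of all reproducible summits and 0.946% of windows over the bases that meet the rule. The interval holds both values. The replicates' own lists gave 1.56% ± 0.261 for members, 1.96% ± 0.276 for deep intronic, 1.35% ± 0.366 for intergenic distal and 0.948% ± 0.0848 for promoter summits (SD, n = 3). The exact p was 0.25 for each difference, and each had the same sign in 3 of 3 replicates. A stricter form, which lies within the RORE, has AGGTCA and a longer AT-rich start. It was found in 5 members (0.535%, 95% interval 0.174 to 1.24%), against 0.392% of all reproducible summits and 0.174% of windows. The bare core, which every RORE holds, is AGGTCA or its form with G as the first base. It was found in 73 members (7.81%), against 7.80% of all reproducible summits and 10.1% of windows.

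The 11 members with a RORE had a median relative signal of 1.36 ± 0.257, against 0.984 ± 0.008 for the 924 others, a log2 ratio of 0.45 ± 0.27 with the same sign in 3 of 3 replicates (exact p = 0.25). Their GC content was 43.1%, against 33.9% in the others, and its part in the difference was not tested. The strongest lay in CG46310 and Irk1, an inwardly rectifying potassium channel gene, with 3.32, 2.83 and 3.01 (3.05 ± 0.25). Eip75B, which encodes the nuclear receptor that represses Hr3 activity, had 2.44, 1.80 and 2.12 (2.12 ± 0.322) at 3L:17972410-17972664. Both had a promoter summit at the nearest TSS.

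Further RORE members followed. The axon guidance family gene beat-Ib had 1.94, 2.09 and 2.28 (2.10 ± 0.172), kdn, the citrate synthase gene, had 1.77 ± 0.0084, and Acf, a gene of an ISWI chromatin remodelling complex, had 2.22, 1.60 and 1.45 (1.76 ± 0.406). The beat-Ib member was nearest to the TSS of lncRNA:CR44867. The member in CG12769 had 1.13 ± 0.315 and the one in alt 1.06 ± 0.076. The one in lncRNA:CR44810 had no relaxed peak in replicate 1 and had 1.08 and 1.33 in the others. Those in C3G, which encodes an exchange factor for Rap GTPases (0.741 ± 0.231), rudhira (0.644 ± 0.140) and a second one in Eip75B (0.670 ± 0.300) were below the median of all summits on average.

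Of the insulator and core promoter elements, the CTCF core was more frequent at members than in the sequence around them. It lay near 15 members (1.60%, 95% interval 0.901 to 2.63%), against 2.56% of all reproducible summits and 0.372% of windows over the bases. The replicates' own lists gave 1.91% ± 0.444 for members and 4.58% ± 0.469 for intergenic distal summits, a difference of -2.67 ± 0.485 percentage points (SD, n = 3, exact p = 0.25). Promoter summits (1.98% ± 0.0507) and deep intronic summits (1.96% ± 0.357) differed from members by less than the spread between replicates. Among the carriers, EcR, the ecdysone receptor gene, had 2.58, 2.48 and 1.84 (2.30 ± 0.400), CG43693 had 1.60 ± 0.232, CG43658 had 1.39 ± 0.280, and a member of Hr4 had 1.26 ± 0.344. The members in EcR and Hr4 were nearest to TSSs of other genes, tRNA:Asn-GTT-1-1 and the pseudogene CR46447.

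Elements of broadly active promoters were less frequent at members than at promoter summits. TATCGATA, the DNA replication-related element (DRE), lay near 1 member (0.107%), the one in Stt3A, against 3.92% of all reproducible summits, 0.438% of windows over the bases and 7.25% of promoter summits (200 of 2758). Over the replicates, members were below promoter summits by 6.83 percentage points: 0.312% ± 0.103 for members and 7.14% ± 0.741 for promoter summits (SD, n = 3, exact p = 0.25). Motif 1 lay near 0 of the 935 members (95% interval 0 to 0.394%, counting error only). It lay near 61 promoter summits (2.21%) and in 0.0347% of windows over the bases. Ohler 7 lay near 15 members (1.60%) and 268 promoter summits (9.72%), and 1.47% of windows over the bases held it. Ohler 6 lay near 4 members (0.428%, 95% interval 0.117 to 1.09%) and in 0.204% of windows, and near 1.05% of promoter summits.

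Several AT-rich elements were more frequent at members than in windows over the bases. TAATTA, the Hox core, lay near 189 members (20.2%, 95% interval 17.7 to 22.9%), against 20.5% of all reproducible summits and 15.1% of windows over the bases, and in 12.1% of the flanks. In single replicates the share was 19.6% ± 0.672 for members and 20.1% ± 0.503 for promoter summits (exact p = 0.5). Mef2 letters lay near 123 members (13.2%), against 14.7% of all reproducible summits and 7.94% of windows. Caudal letters lay near 319 members (34.1%), against 35.2% of all reproducible summits and 29.2% of windows. For these elements, members did not exceed all reproducible summits. These AT-rich elements can overlap each other, members had less GC than the bases, and the part of GC content in their shares was not tested. The 4 strongest members with a TAATTA were those in CG11050, Adf1, norpA, the phospholipase C gene of fly vision (4.33 ± 0.829), and NFAT (3.95 ± 0.513).

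Of the other elements, CACGTG and GCCATNTT were less frequent than in windows over the bases, with exact binomial intervals below the share of windows. Their intervals, 0.589 to 2.10% and 1.74 to 3.92%, held the shares of all reproducible summits, 1.70 and 3.29%. Members thus did not stand apart from other summits in these 2 elements. The part of GC content in these low shares was not tested. For the rest of the elements listed here, the interval held the share of windows, so no difference beyond counting error was seen. CAGCTG lay near 58 members (6.20%, against 7.51% of windows and 10.3% of promoter summits), and CACGTG near 11 (1.18%, against 2.35%). CAGGTAG, bound by the early embryonic factor Zelda, lay near 5 (0.535%, against 1.02%), GCCATNTT, bound by the Polycomb recruiter Pho, near 25 (2.67%, against 4.16%), and the Ftz-f1 element near 6 (0.642%, against 0.924%). AGATAAG, bound by GATA factors, lay near 26 (2.78%, against 2.95%) and TTCNNNGAA, bound by Stat92E, near 59 (6.31%, against 6.46%). The EcR/Usp element lay near 1 member (0.107%, against 0.0405%), and TGCATACTT, of the insulator protein Su(Hw), near 5 (0.535%, against 0.481%). AACCGGTT, bound by Grainyhead, lay near 2 (0.214%, against 0.35%).

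Members lay in few genes, most of them with long introns. Of the 9085 protein-coding genes that have intronic sequence meeting the rule, 672 (7.40%) held a member. Those 672 had a median of 4.87 kb of such sequence, and the 8413 others had 0.367 kb. Among all host genes, 509 held 1 member, 123 held 2, 39 held 3 and 13 held 4, while 7 held 5, 3 held 6, 1 held 7, 2 held 8 and 2 held 12. The counts below are therefore given with the members per Mb of such sequence, which was 55.8 over all of it, and the share of genes that hold a member is to be read against the 7.40% of all such genes. The gene lists were chosen with earlier results known, so their counts are descriptions. Members are named by a gene that holds them, and the nearest TSS can be another gene's. That is so for the members given in EcR, Hr4, Wnt4, fng, ex, fra and beat-Ib, for the strongest one in ush and for the weaker one in Diap1. It is also so for those in Hr3, br, Smr and ttv, where the other gene holds the summit as well.

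Tlk and shn, which encodes a zinc finger cofactor of the Dpp pathway, held 8 members each, with relative signals of 0.590 to 7.04 and 0.587 to 2.71. All 8 were nearest to a TSS of their own gene in both. In pnt, an ETS factor gene of receptor tyrosine kinase signalling, 7 members ran from 0.570 to 1.23. In ush, 6 members ran from 0.657 to 17.8 and were nearest to TSSs of cbt, ush and lncRNA:CR46258. CHES-1-like, a forkhead gene, and CG32264 held 6 each, with 0.646 to 3.83 and 0.535 to 3.00.

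The most members of any gene, 12, lay in both CG1677 and lncRNA:CR44357, which overlap on X, so these are the same summits. They spanned 46.7 kb and ran from 0.718 to 3.45 over the 10 that had a value in all replicates. None was nearest to a TSS of either host gene. The nearest TSSs were those of unc-119, brk, Dok, CG42780 and CBP, where brk encodes a repressor of Dpp target genes.

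In the ecdysone cascade, 9 of 27 genes with such sequence held 22 members, or 108 per Mb. ImpL2, an ecdysone-inducible gene for a secreted antagonist of insulin signalling, had the strongest, with 3.62, 4.04 and 4.15 (3.93 ± 0.280), 1080 bp upstream of a TSS of the gene. In the Hr3 locus itself, a member that also lies in CG46321 and CG12912, and is nearest to the TSS of CG46321, had 3.25, 3.46 and 3.60 (3.44 ± 0.174). The transgene carries Hr3 sequence too, and where it shares sequence with the locus their signals cannot be told apart. Hr4, a nuclear receptor gene of the cascade, had 2.42, 2.46 and 2.49 (2.46 ± 0.034).

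After EcR and Eip75B, given above, came br, the gene of the Broad zinc finger factors, at a member shared with Mur2B (1.84 ± 0.269). Smr, which encodes a corepressor of EcR, had 1.32 ± 0.054, and tai, which encodes a coactivator of EcR, had 0.793, 1.41 and 1.19 (1.13 ± 0.313). The gene vri, which encodes a bZIP factor, had 1.33, 0.367 and 0.840 (0.846 ± 0.482). The last 2 crossed the median of all summits from one replicate to another. Of 18 nuclear receptor genes with such sequence, 4 held 15 members, or 109 per Mb (Hr3, Hr4, Eip75B and EcR).

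Among signalling pathways, receptor tyrosine kinase genes held most, with 12 of 29 genes and 22 members (153 per Mb). Their strongest member lay in Raf, the kinase gene (4.62, 5.39 and 5.43, or 5.15 ± 0.456), and the next in S, which encodes a protein needed for export of EGF receptor ligands (2.71 ± 0.270). TGF-beta genes held 13 members in 5 of 16 genes (174 per Mb), the strongest in Mad, the Smad gene of Dpp signalling (3.41, 3.40 and 2.53, or 3.11 ± 0.502), and shn (2.71 ± 0.299). Wnt genes held 11 in 7 of 20 (106 per Mb), with nkd, a feedback inhibitor, at 1.83 ± 0.218 and the ligand gene Wnt4 at 1.09 ± 0.144.

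Smaller lists followed. Hedgehog genes held 5 members in 3 of 11 genes (148.5 per Mb), with the coreceptor gene boi at 1.09 ± 0.197 and ttv, which makes heparan sulfate, at 1.06 ± 0.0784 in a member that also lies in LamC. Hippo genes held 5 in 4 of 15 (92.3 per Mb), with ex at 1.53 ± 0.0728 and kibra at 1.23 ± 0.131. Notch genes held 3 in 3 of 18 (43.5 per Mb), with the ubiquitin ligase gene neur at 1.85 ± 0.228 and the glycosyltransferase gene fng at 0.760 ± 0.268. Insulin and TOR genes held 6 in 2 of 22 (123 per Mb), InR (2.49 ± 0.191) and Sik3 (1.44 ± 0.0966). Clock genes held 5 in 4 of 14 (71.7 per Mb), with the kinase genes dco at 1.14 ± 0.0473 and sgg at 0.895 ± 0.118.

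Developmental lists were nearer to the overall density. Muscle genes held 9 members in 5 of 26 genes (48.6 per Mb), with the myoblast fusion genes kirre at 2.57 ± 0.0092 and mbc at 2.45 ± 0.241. Axon guidance genes held 8 in 7 of 29 (40.5 per Mb), with the Netrin receptor gene fra at 2.25 ± 0.0969 and beat-Ib, given above. Neural fate genes held 5 in 4 of 15 (71.5 per Mb), with grh, an epithelial and neuroblast factor, at 2.38 ± 0.0535 and elav, a neuronal RNA-binding protein gene, at 1.28 ± 0.316. Tracheal genes held 5 in 3 of 16 (51.5 per Mb), with grh and rib (2.15 ± 0.121). Hox genes held 3 in 2 of 8 (53.8 per Mb), of which Abd-B held members at 2.24 ± 0.252 and 1.01 ± 0.269.

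The list of insulator and core promoter factor genes, which also took in the Polycomb gene ph-p and the Trithorax gene trx, had the highest density, 333 per Mb. It held 11 members in 4 of 19 genes, Trl, psq, ph-p and trx, with only 33.0 kb of such sequence in the list. Of the 11, psq held 5 and Trl held 3. The second Trl member had 1.10, 2.27 and 2.26 (1.88 ± 0.674), with replicate 1 below the others. Lipid genes held 4 in 4 of 18 (105 per Mb), with the lipase gene bmm at 3.65 ± 0.289 and the perilipin gene Lsd-2 at 2.49 ± 0.471. Of 8 cell death genes, Diap1, a caspase inhibitor gene, held 2 (123 per Mb), at 2.03 ± 0.272 and 0.668 ± 0.173. None of 18 segmentation genes and none of 10 glycolytic genes held a member, but these lists have only 24.1 and 7.45 kb of sequence that meets the rule.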

How the data were processed

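The authors deposited narrow peak lists for 3 libraries, 1 per replicate. Per the labels and the deposited notes, a relaxed list of peaks on dm6 was called for each replicate (25578, 27006 and 23582 peaks) and for the pooled reads (23597 peaks), with a control library that was not analysed here, and an optimal list of 5357 peaks was kept by the irreproducible discovery rate. No source used here names the aligner, the peak caller with its settings or the threshold of that rate. The deposited signal of each peak is the authors' own measure of strength, without a stated unit, and it differs in scale between lists (medians at reproducible summits of 39.6, 78.6 and 67.0 in the 3 replicates). Depth is unknown, since the lists hold peaks and not reads. Chromatin was sonicated to 200 to 800 bp, per the labels.

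A summit was placed by the annotation of Ensembl release 115 (BDGP 6.54), transposable elements left out, on the 6 arms X, 2L, 2R, 3L, 3R and 4. The optimal list gave the counts, with exact binomial 95% intervals that cover counting error only. Mean ± SD values (n = 3) came from the strongest 5357 peaks of each replicate's own list. Each replicate's signal at a reproducible summit was that of the relaxed peak covering it with the closest summit, divided by the replicate's median. Classes were compared by ratios or differences within each replicate and an exact two-sided sign-flip test. The replicates are labelled biological. With 3 of them the sign-flip p is 0.25 whenever all signs agree, whatever the spread between these libraries, which the SD gives. Background shares are over all bases that meet the rule. A search for 23 sequence elements on both strands covered 100 bp on either side of the summit, and the flank windows were centred 500 bp away.

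The members and gene lists were chosen with earlier results of these data known. Named with values were the 12 members of highest deposited signal, members with a RORE, the 4 strongest with a CTCF core, DRE or Hox core, the strongest member in each ecdysone cascade gene, the 8 genes with most members, the 2 summits on either side of each distance limit and the 2 strongest members of each other list. Sequences from arm 2R were left out. Alternatives were other distance limits, protein-coding TSSs alone, the summits with signal over the median, other windows and leaving out each replicate. The calculations used NumPy 2.4.6, pandas 2.3.3 and SciPy 1.17.1 in Python 3.11.15, with figures by matplotlib 3.10.9, and were tested on simulated data.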

Additional observations from a re-analysis of the deposited data

How the results depend on the processing

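Of 88 alternative values, 50 moved by less than the spread between replicates, or kept their direction where a test was run, and 0 reversed. The other 38 moved by more, 14 of them with a replicate left out, where the list of peaks changes as well, and 24 under other settings. The near-intronic share became 17.1% among summits with signal over the median, 16.8% with protein-coding TSSs alone, 10.8% beyond 1000 bp and 13.8% up to 2000 bp, as these limits take in less sequence. The share downstream of the nearest TSS became 64.0% with protein-coding TSSs and 66.2% beyond 1000 bp. The share nearest to the host gene's TSS became 84.7% at signal over the median, 89.9% with protein-coding TSSs, 81.7% beyond 1000 bp and 84.8% up to 2000 bp. The share with a promoter summit became 16.2% at signal over the median, where fewer promoter summits remain, and 26.6% beyond 1000 bp. GC content became 31.9% within 50 bp and 37.9% within 200 bp. The RORE share became 1.53% at signal over the median, 1.55% beyond 1000 bp, 0.642% within 50 bp and 1.93% within 200 bp, and the CTCF core share 2.67% within 200 bp. The Hox core share became 21.0% at signal over the median, 19.3% with protein-coding TSSs, 23.3% beyond 1000 bp, 11.3% within 50 bp and 29.1% within 200 bp. Where no reason is given, the cause was not tested.

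Leaving out each replicate in turn gave 17.8 to 18.1% for the near-intronic share, 64.6 to 65.5% downstream, 83.2 to 83.7% nearest to the host gene, 24.8 to 25.7% with a promoter summit, 34.1 to 34.6% GC, 1.45 to 1.70% with a RORE, 1.66 to 2.10% with a CTCF core and 19.3 to 19.9% with a Hox core. These are means of the remaining replicates' own lists and compare best with the mean of all 3, such as 18.0% ± 0.302 for the near-intronic share. The log2 signal ratios became -0.15 to -0.13 against promoter, 0.14 to 0.17 against deep intronic and 0.14 to 0.19 against intergenic distal summits, with an exact p of 0.5, the smallest 2 replicates allow. Reading the strongest relaxed peak over a summit, an alternative chosen after seeing the data, gave -0.18, 0.14 and 0.16. No paired analysis between groups was possible because there was 1 group; classes of summits were compared within each replicate.

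Peak lists without reads give no depth, and without an untagged library no background of the antibody was measured here. The smallest p of the sign-flip test with 3 replicates is 0.25.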
